A study of Ovis aries with 6 samples.

Results

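The miR-23, miR-27 and miR-24 miRNAs were followed in longissimus muscle of sheep, as all names equal to miR-23a, miR-23b, miR-27a, miR-27b or miR-24, or to one of these with an arm or locus suffix. The rule gave 13 of 10430 miRNA names, listed in 27 of 11161 rows, and each name is given by its most abundant row. Small RNA was sequenced from 3 libraries of Qianhua Mutton Merino (QHMM) and 3 libraries of Small Tail Han (STH) sheep, both kept under natural conditions with no treatment other than the difference in breed. The design compares the muscle miRNA profiles of these breeds. No source used here gives the age or sex of the sheep, or says that the libraries are from separate animals, so the p-values cover the spread among these libraries, which may be technical.

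In mammals these miRNAs are made from a pair of clustered primary transcripts. One carries miR-23a, miR-27a and miR-24-2, and the other carries miR-23b, miR-27b and miR-24-1, so that the 3p arm of miR-24 is the same from either transcript. Each hairpin gives a 5p and a 3p arm, and for these hairpins the 3p arm is the usual guide that enters the silencing complex. In mouse muscle, miR-23a represses the ubiquitin ligases atrogin-1 and MuRF1 that drive atrophy, miR-27a represses myostatin, and miR-27b represses Pax3 in muscle progenitors, while miR-24 favours myoblast differentiation. The miR-23 and miR-27 miRNAs are also made in endothelium, where they act in vessel growth.

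The mature sequences are shown because the names differ at so few bases that the sequences set what each count can tell. They are printed 5′ to 3′ as deposited, with the seed (bases 2 to 8, which pair with targets) in capitals.
miR-23a: aTCACATTgccagggatttcca
miR-23b: aTCACATTgccagggatt
miR-23b-3p: aTCACATTgccagggattacc
miR-27a: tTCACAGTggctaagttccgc
miR-27b-3p: tTCACAGTggctaagttctgca
miR-24-3p: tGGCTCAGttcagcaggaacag
miR-24-1-5p: gGTGCCTActgagctgatatcag
miR-24-2-5p: cGTGCCTActgagctgaaacacag
miR-27b-5p: gCAGAGCTtagctgattggtgaac

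The seed TCACATT was shared by miR-23a, miR-23b, miR-23b-3p and miR-23a-3p, and the seed TCACAGT by miR-27a, miR-27a-3p and miR-27b-3p. miR-23a and miR-23b-3p differed at 1 base, T19A (the base of miR-23a, its position from the 5′ end, the base of miR-23b-3p). miR-27a and miR-27b-3p also differed at 1 base, C19T in the same notation. The row named miR-23b is a sheep entry of 18 nt, all of which equal the first bases of both miR-23a and miR-23b-3p, so that it ends before the base that tells them apart. The sequence of miR-23a-3p, a rat entry, is that of miR-23a without its last base, and miR-27a-3p has the same 21 nt as miR-27a. No source used here says how reads with several matches were counted. miR-27a had 257109 counts in total and miR-27a-3p, of the same sequence, had 10, so that not every matching row received each read. How reads were divided among the rows of 1 family is not known.

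The total over all rows was 8062231 to 10276427 counts in QHMM and 8681817 to 11282332 counts in STH libraries. Levels are given as CPM, the count of a row scaled as usual to the total of its library, which was taken over 1 row per name. By this measure the 13 names together took between 2.49% and 3.22% of the counts in QHMM and between 2.49% and 3.07% in STH libraries. The muscle fibre miRNAs (miR-1, miR-133, miR-206, miR-208b and miR-499) summed to 518659 to 547197 CPM in QHMM and 451045 to 536885 CPM in STH, as the labelled tissue would have. QHMM replicate 3 stood apart by its red blood cell miRNAs (miR-451, miR-144 and miR-486), with 84308 CPM against 18967 and 19923 CPM in the other QHMM libraries and 7300 to 13838 CPM in STH.

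miR-23a was the most abundant of the family at 24th place among all names, followed by miR-23b (27th), miR-27a (29th), miR-23b-3p (35th), miR-24-3p (42nd) and miR-27b-3p (90th). The miR-23a row had 8850.0, 6978 and 7315 CPM in QHMM libraries, and 8744, 6173 and 8400.2 CPM in STH libraries. The lowest library of each breed lay below the higher libraries of the other breed, and the breeds overlapped. Over the 6 libraries miR-23a varied by 14.0% (coefficient of variation), and of 68 names with at least 1000 CPM 13 varied less.

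The 18-nt row miR-23b stood at nearly the same level as miR-23a, with 9812, 7421 and 6574 CPM in QHMM and 7525, 6624 and 7029 CPM in STH. QHMM replicate 1 was the highest library and QHMM replicate 3 the lowest. miR-23a exceeded miR-23b in 3 of 6 libraries, with a ratio between 0.902 and 1.195, so that their order did not hold beyond the spread between libraries. The 18-nt row took 39.0% to 44.1% of the counts of the miR-23 3p rows in QHMM libraries and 38.6% to 41.1% in STH libraries. These counts cannot be assigned to miR-23a or miR-23b from the sequence alone.

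Only the 21-nt row miR-23b-3p carries the base that marks miR-23b, and it had 3566, 4451 and 2941 CPM in QHMM libraries, against 3194, 3295 and 2732 CPM in STH libraries. QHMM replicate 2 was the highest library. Among rows long enough to show this base, miR-23b-3p made up 28.7%, 38.9% and 28.6% in QHMM libraries and 26.7%, 34.7% and 24.5% in STH libraries. The remainder were miR-23a and miR-23a-3p. The exact binomial 95% interval in QHMM replicate 2 was 38.5% to 39.3%, and such intervals cover counting error only. The spread between libraries was much wider than that, and replicate 2 had the highest share in each breed.

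miR-27a had 6383, 5980.1 and 5457 CPM in QHMM and 7546, 6094 and 5313 CPM in STH libraries, a coefficient of variation of 13.1%. STH replicate 1 was the highest library and STH replicate 3 the lowest. It lay below miR-23b in 5 of 6 libraries, at nearly equal levels in STH replicate 1, and above miR-23b-3p in all 6. miR-27b-3p, the product of the other transcript, was much lower, with 663, 425 and 526 CPM in QHMM and 535, 521 and 418 CPM in STH libraries. The ratio of miR-27a over miR-27b-3p ran from 9.62 to 14.1 in QHMM and from 11.7 to 14.1 in STH libraries, and miR-27b-3p took between 6.62% and 9.41% of the counts of these rows. miR-27a is a known sheep entry and miR-27b-3p a predicted locus on chromosome 2, and whether reads with the base of miR-27b were counted as miR-27a was not tested.

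miR-24-3p had 2732, 2057 and 1967 CPM in QHMM libraries, and 2960.2, 2079.9 and 2292 CPM in STH libraries. STH replicate 1 was the highest library and QHMM replicate 3 the lowest. This level comes from 1 row, whereas the same 22 nt are listed at 3 predicted loci, 2 on chromosome 5 and 1 on chromosome 2. The counts of the 3 loci in a library differed by 0.980% to 1.71% of their mean. Summed over the 6 libraries, the chi-square of these differences was 12.1 on 12 degrees of freedom, so that the rows were not copies of each other and yet differed by no more than counting noise. Summed over all rows of its name, miR-24-3p had 8136, 6154 and 5842 CPM in QHMM and 8904, 6243 and 6809 CPM in STH libraries. On that scale it came near to miR-23a, with ratios of miR-23a over miR-24-3p from 1.09 to 1.25 in QHMM and from 0.982 to 1.23 in STH libraries. A further predicted locus on chromosome 18, with the difference T5A from miR-24-3p, held 206 of the counts.

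**Figure D1:**
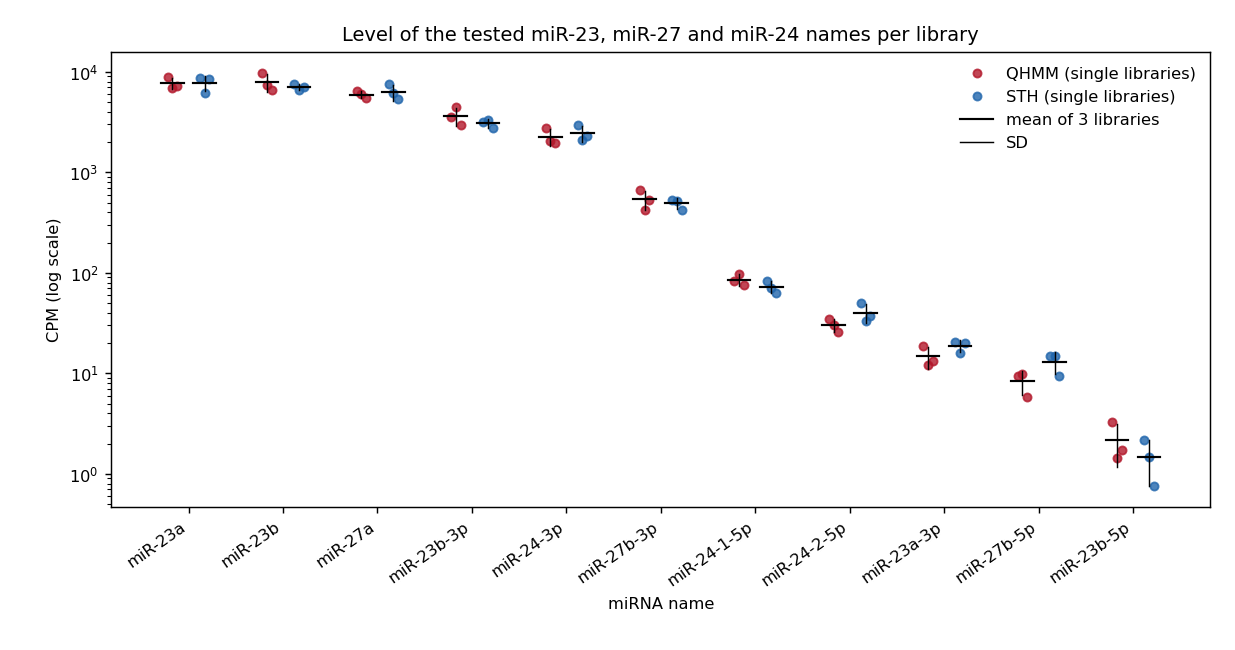
CPM (log scale) of the 11 tested miR-23, miR-27 and miR-24 names in longissimus muscle, QHMM left and STH right of each tick. Each point is a library, and the black lines give the mean of each breed and its SD (n = 3). The points of both breeds overlap for every name, from miR-23a at a mean of 7743 CPM down to miR-23b-5p at 1.82 CPM.

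The 5p arms, which come from the other strand of the hairpin and are mostly discarded, were low and differed in sequence between the loci. They therefore show which transcript a hairpin came from, which miR-24-3p cannot. miR-24-1-5p of the miR-23b transcript had 82.9, 97.6 and 75.1 CPM in QHMM and 83.04, 70.5 and 63.7 CPM in STH libraries. miR-24-2-5p of the miR-23a transcript had 35.1, 29.97 and 25.8 CPM in QHMM and 49.6, 33.4 and 37.2 CPM in STH libraries. miR-24-1-5p thus exceeded miR-24-2-5p in all 6 libraries. Among the 3p rows, miR-23a lay above miR-23b-3p and miR-27a above miR-27b-3p in all 6. That order leaves out the row miR-23b, which cannot be assigned to either transcript and took 38.6% to 44.1% of the miR-23 3p counts. Whether reads of miR-27b were counted as miR-27a was not tested. The 3p rows therefore do not settle which transcript gave more. The sequences of miR-24-1-5p and miR-24-2-5p share a run of 16 nt behind a first base that differs (G1C). Reads that lie within this run cannot be told apart.

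miR-27b-5p had 9.41, 9.87 and 5.78 CPM in QHMM and 14.9, 14.7 and 9.33 CPM in STH libraries. Only STH replicate 3 lay within the range of QHMM. The 5p arm took 1.40%, 2.27% and 1.09% of the miR-27b counts in QHMM libraries and 2.71%, 2.75% and 2.18% in STH libraries. QHMM replicate 2 exceeded STH replicate 3, and the intervals of several libraries met: in QHMM replicate 2 the exact binomial 95% interval was 1.71% to 2.94%, and in STH replicate 3 it was 1.72% to 2.73%. For miR-24, the 5p arms took 1.43% to 2.03% of the counts in QHMM and 1.46% to 1.64% in STH libraries, with the 3p arm summed over its 3 loci.

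The other members were rare. miR-23b-5p was counted 25, 8 and 13 times in the QHMM and 16, 9 and 6 times in the STH libraries, which is at most 0.0928% of the miR-23b-5p and miR-23b-3p counts. miR-23a-3p, whose reads stand beside the sheep row of the same arm, had 68 to 142 counts in QHMM and 98 to 160 counts in STH libraries. miR-27a-3p had 10 counts in total, and miR-23a-5p had 1 count, in QHMM replicate 1.

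Between the breeds, none of the miR-23, miR-27 and miR-24 names passed the test. The intervals leave room for changes in the abundant names too, and for larger ones in the rarer names. Of the 13 names, 11 passed the filter on low counts, and miR-27a-3p and miR-23a-5p did not. Among these 11, 0 had an adjusted p under 0.05 in edgeR's quasi-likelihood test with Benjamini-Hochberg adjustment over 1274 names, where 2.2% of all names were called, so that a count of 0 among 11 is near the background and no result about these names. At an unadjusted p under 0.05 there were also 0, against 13.7% of all names. DESeq2 gave 0 at either threshold, and it called 49 of the 1274 names by adjusted p. Its share of all names at the unadjusted threshold was not taken. In none of the 11 did the CPM of the breeds lie apart, which held for 17.2% of all names tested. The log2 fold changes, QHMM over STH, were positive for 5 names and negative for 6. Their median was -0.015, beside 0.031 over all names tested, and the median of their absolute values was 0.24, beside 0.36.

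The abundant 3p names had the narrowest intervals. miR-23a averaged 7714 ± 998 CPM in QHMM and 7772 ± 1396 CPM in STH (SD, n = 3 each), which is -0.015 ± 0.20 (SE) as log2 fold change, with an edgeR 95% interval of 0.736-fold to 1.33-fold. For miR-23b-3p the means were 3653 ± 759 CPM in QHMM and 3073.5 ± 300.3 CPM in STH (SD, n = 3 each), and the interval ran from 0.826-fold to 1.73-fold. miR-27a averaged 5940.1 ± 464 CPM in QHMM and 6318 ± 1133 CPM in STH (SD, n = 3 each), with an interval of 0.683-fold to 1.29-fold. For miR-27b-3p, with 538 ± 119.6 CPM in QHMM and 491 ± 63.6 CPM in STH (SD, n = 3 each), it ran from 0.738-fold to 1.56-fold, and for miR-24-3p, with 2252 ± 418 CPM in QHMM and 2444 ± 459 CPM in STH, from 0.657-fold to 1.28-fold. The fold changes of miR-23a, miR-27a, miR-24-3p, miR-27b-3p and miR-23b-3p changed sign when 1 library or another was left out, so that none of them has a settled direction.

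The names below miR-27b-3p in level had the wider intervals, and the largest fold changes stood among them. Of these names, only miR-24-1-5p had a smaller fold change than the 0.26 of miR-23b-3p. miR-23a-3p, a 3p name of low level, was at -0.37 ± 0.30 (SE, edgeR adjusted p = 0.621). miR-27b-5p was at -0.64 ± 0.36 on the log2 scale (SE, edgeR adjusted p = 0.459), with 8.35 ± 2.24 CPM in QHMM and 12.99 ± 3.17 CPM in STH (SD, n = 3 each). Its interval ran from 0.372-fold to 1.10-fold. With the replicate number as a block its unadjusted edgeR p was 0.0446 and its adjusted p 0.330. miR-24-2-5p was at -0.40 ± 0.29 (SE, edgeR adjusted p = 0.581) and miR-24-1-5p at 0.24 ± 0.29 (SE, edgeR adjusted p = 0.748). miR-23b-5p was at 0.55 ± 0.49 (SE, edgeR adjusted p = 0.668), with an interval of 0.705-fold to 3.03-fold at these low counts. When miR-23a, miR-23b, miR-23b-3p and miR-23a-3p were merged into 1 name, it no longer mattered in which of them a read was counted. A read counted in several of them would enter more than once. The family merged in this way stood at 0.11 ± 0.19 (SE, edgeR adjusted p = 0.830). For the miR-27 rows merged in the same way it was -0.070 ± 0.21 (SE, edgeR adjusted p = 0.908).

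**Figure D2:**
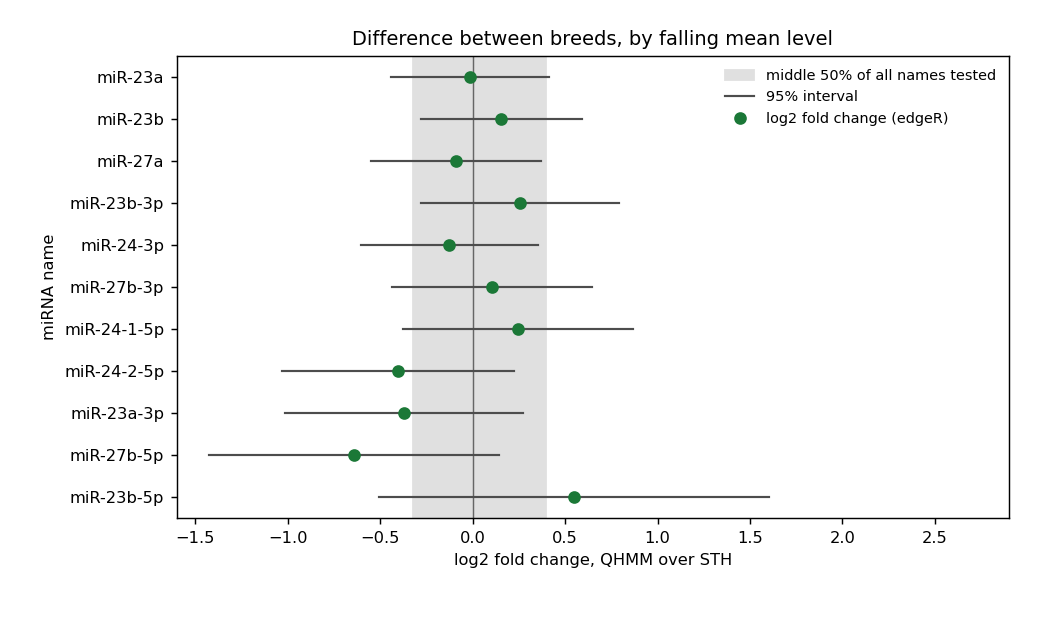
Log2 fold change of the 11 tested names, QHMM over STH (x axis), ordered by falling mean level. Points are edgeR estimates, lines are their 95% intervals, and the grey band lies between the quartiles of all 1274 names tested (-0.32 and 0.40). Every interval crosses 0, and they widen towards the rare 5p names.

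Ratios between names of 1 library do not depend on its depth, and 5 such ratios were compared between the breeds. The ratio of miR-24-1-5p over miR-24-2-5p was chosen after its values were seen. It was 2.36, 3.26 and 2.91 in QHMM libraries, against 1.67, 2.11 and 1.71 in STH libraries. Every QHMM library lay above every STH library, so that miR-24-1-5p made up 70.3%, 76.5% and 74.4% of both 5p arms in QHMM and 62.6%, 67.9% and 63.1% in STH. The difference in mean log2 ratio was 0.63 (exact permutation test, two-sided, p = 0.10, adjusted p = 0.50 over the 5 ratios), and 3 against 3 libraries allow no p below 0.10. It lay between 0.52 and 0.76 with each library left out, and at 0.61 without QHMM replicate 3. Since the ratio was picked for this separation, it supports nothing by itself, and the separate fold changes of both names did not pass the test. The summed red blood cell miRNAs also lay apart, as given above. So did the summed leukocyte miRNAs (miR-142, miR-223, miR-150 and miR-155), at 1790 to 1966 CPM in QHMM and 1189 to 1465 CPM in STH. Such a sum is weighted to the abundant names and does not stand for each of them. The 6 tested leukocyte names had a median log2 fold change of 0.032, beside 0.031 over all names tested. The part of red blood cell and leukocyte miRNAs in this ratio was not tested.

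The other ratios did not separate the breeds. The ratio of miR-23a over miR-23b was 0.902, 0.940 and 1.11 in QHMM and 1.16, 0.932 and 1.195 in STH libraries, a difference of -0.15 in mean log2 ratio (exact permutation test, two-sided, p = 0.30, adjusted p = 0.50). With miR-23b-3p in place of the 18-nt row the difference was -0.23 (exact p = 0.50), a comparison that was added later, with the data in view. For miR-27a over miR-27b-3p the difference was -0.19 (exact p = 0.30, adjusted p = 0.50). For miR-27a over miR-23a, both of the miR-23a transcript, it was -0.075 (exact p = 0.70, adjusted p = 0.80). For miR-27b-3p over the 18-nt row miR-23b, which cannot be assigned to either transcript, it was -0.035 (exact p = 0.80, adjusted p = 0.80), and over miR-23b-3p, which shares its transcript, it was -0.12 (exact p = 1), again added with the data in view. miR-27a stood at 0.721 to 0.857 of the miR-23a level in QHMM and at 0.632 to 0.987 of it in STH libraries.

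**Figure D3:**
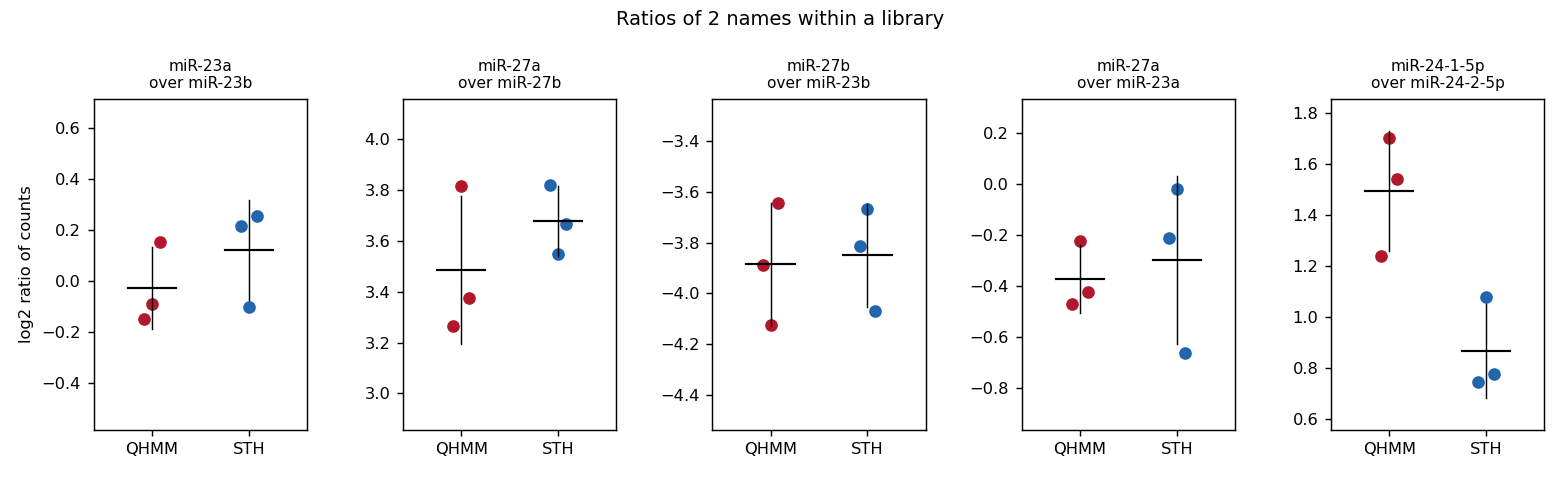
Log2 ratio of the counts of 2 names within a library (y axis, each panel spans the same number of log2 units), QHMM left and STH right. Each point is a library, and the black lines give the mean of each breed and its SD (n = 3). The breeds overlap in the first 4 panels, and in the panel of miR-24-1-5p over miR-24-2-5p the QHMM libraries lie above the STH libraries, by 0.63 in the mean.

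The RefSeq sheep annotation (assembly ARS-UI_Ramb_v3.0) places MIR23A and MIR27A next to each other on chromosome 5, with ZSWIM4 as the next gene, and MIR23B inside the gene AOPEP on chromosome 2. The predicted loci of miR-24-2-5p (chromosome 5) and of miR-27b and miR-24-1-5p (chromosome 2) have the chromosomes of these clusters. The deposited rows give no positions and that annotation is of another build than the files, so no coordinates are printed. To see which names moved together over the 6 libraries, each log2 CPM (prior count 2, TMM factors of edgeR) was centred on its mean, and the root mean square difference between names was taken as a description.

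Of the names of the miR-23b transcript, miR-23b-3p and miR-24-1-5p ran close to each other at 0.10 log2 units. Both were highest in QHMM replicate 2 and lowest in STH replicate 3. miR-27b-3p of the same transcript ran apart from them, at 0.32 from miR-23b-3p and 0.28 from miR-24-1-5p, with its highest level in QHMM replicate 1. miR-27a lay at 0.20 from miR-24-2-5p and 0.21 from miR-23a of its own transcript, and as near to names of the other one, at 0.19 from miR-24-1-5p and 0.21 from miR-27b-3p. All of these exceeded the 0.18 that a name with the same level in each library would have. miR-24-3p, which both transcripts give, lay at 0.13 from miR-23a, 0.14 from miR-27a, 0.15 from miR-24-2-5p, 0.17 from the 18-nt row miR-23b, 0.22 from miR-27b-3p, 0.27 from miR-24-1-5p and 0.33 from miR-23b-3p. A name with the same level in each library would lie 0.17 from miR-24-3p and 0.12 from miR-23a, and the high QHMM replicate 2 enters the distances of miR-24-1-5p and miR-23b-3p, so that this order does not show which transcript miR-24-3p moved with.

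**Figure D4:**
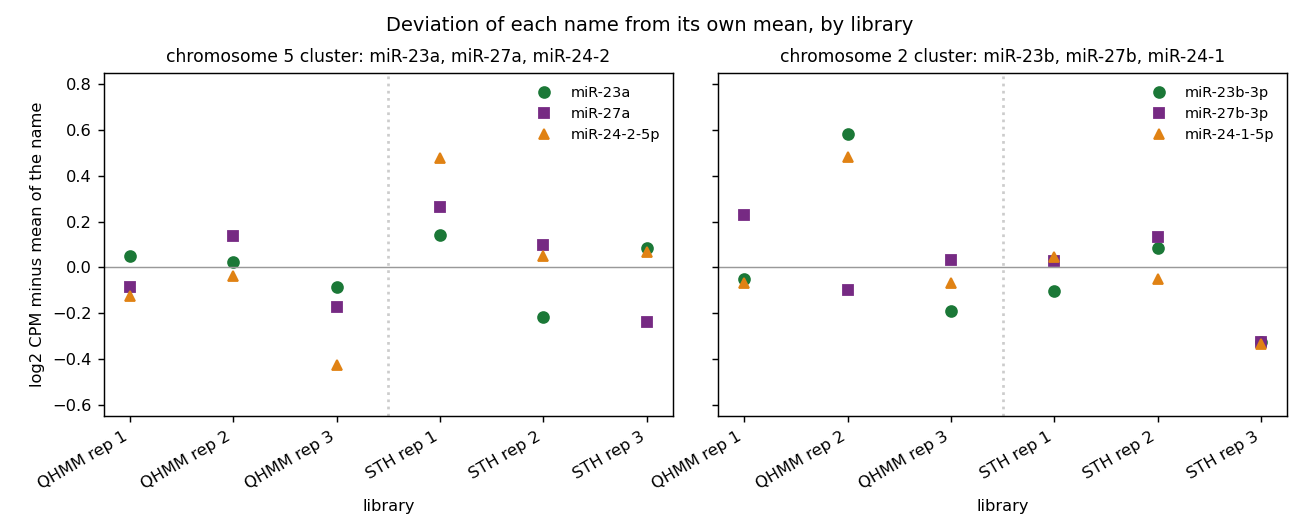
Deviation of log2 CPM (TMM factors) from the mean of the name (y axis) in each of the 6 libraries (x axis), QHMM left of the dotted line and STH right of it. Names of the chromosome 5 cluster are in the left panel and names of the chromosome 2 cluster in the right one. miR-23b-3p and miR-24-1-5p run close to each other, 0.10 log2 units apart by root mean square, while miR-27b-3p departs from them in QHMM replicates 1 and 2.

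Outside the family, the nearest of 476 known names by the same measure were miR-494-3p and miR-3613-5p for miR-23a (both 0.11), miR-4709-5p (0.095) and miR-150 (0.11) for miR-23b, miR-296-5p (0.067) and miR-505-5p (0.074) for miR-27a, miR-339-5p (0.068) and miR-1248 (0.083) for miR-27b-3p, and let-7a (0.069) and let-7i (0.083) for miR-24-3p. The median distance of all known names was 0.37 to 0.39. For miR-23a, these distances were little smaller than the 0.12 of a flat profile. Of the nearest names, miR-4709-5p, miR-505-5p and miR-1248 averaged only 2.55, 8.70 and 1.99 CPM, so that counting error weighs on their distances. Each nearest name is the closest of 476 over 6 libraries, and the match does not show that the names are regulated together.

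Few other names carried the seeds of the family. Apart from the members, TCACATT stood in miR-23c (43 counts in total) and in 1 predicted locus, TCACAGT in 2 predicted loci with 5 counts together, and GGCTCAG of miR-24-3p in 5 names with 236 counts together. miR-128-3p begins with the 7 bases of the miR-27 seed, so that the match is shifted by 1 base, and is shown with these bases in capitals because targets of both can overlap.
miR-128-3p: TCACAGTgaaccggtctctt
It had 2374 CPM on average, which lies between miR-27a and miR-27b-3p. In human and mouse, miR-181c and miR-181d are made from a locus close to that of miR-23a. Here they were rare, with 19 to 54 counts of miR-181d-5p in QHMM and 27 to 40 in STH libraries, at 0.11 ± 0.35 as log2 fold change (SE, edgeR adjusted p = 0.909). miR-181c-3p had 5 to 12 counts in QHMM and 11 to 17 in STH libraries, at -0.59 ± 0.47 (SE, edgeR adjusted p = 0.621). miR-3074, which overlaps miR-24-1 in human, was looked for, and no name of the series was equal to it, alone or with a suffix.

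miRNAs known for muscle mass and for vessel growth, the settings in which these clusters are mostly studied, were set beside the family. Of 26 tested names on the muscle mass list 2 passed the edgeR test, both higher in QHMM, and they were miR-499-3p and miR-208b-3p, which come from introns of slow myosin genes and are named here because they passed. DESeq2 called 3 names of the list, against 49 of 1274 among all names. In edgeR 5 names of the list had an unadjusted p under 0.05. Among all names, edgeR called 2.2% and gave 13.7% under that p. The log2 fold changes of miR-499-3p and miR-208b-3p were 1.35 ± 0.31 and 1.27 ± 0.29 (SE), each at an edgeR adjusted p of 0.0419. The list as a whole had a median of -0.00098. Of 27 tested names on the vessel growth list 0 passed in edgeR, 1 had an unadjusted p under 0.05 and 0 passed in DESeq2, with a median of -0.20. miR-126, made in endothelium, summed over its names to 20847, 32074 and 15566.5 CPM in QHMM, against 31360, 29701 and 27808 CPM in STH libraries. QHMM replicate 2 was the highest library here, as it was for miR-23b-3p and miR-24-1-5p, and the lowest was QHMM replicate 3. By contrast, miR-23b-3p and miR-24-1-5p were lowest in STH replicate 3. Among other members, miR-27b-3p was highest in QHMM replicate 1, and miR-27a and miR-24-3p in STH replicate 1. In bulk muscle, fewer cells of a type and less RNA per cell cannot be told apart, and the part of endothelium in the levels of the family was not tested.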

How the data were processed

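Small RNA of longissimus muscle was size-selected on gels and sequenced from single-end Ion Torrent libraries. The values deposited by the authors are raw read counts, 1 row for each mature sequence, with no normalization. Build Oar_v3.1 and DESeq are listed in the submitters' processing notes. The aligner and the handling of reads with several matches were not given in the sources used here. Each of the 6 value columns was matched to its sample by label. Replicates of a breed differed beyond sampling noise, with a chi-square per degree of freedom of at least 80.3.

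A name is the miRNA name without its species prefix. QHMM was set against STH in edgeR 4.0.16 (R 4.3.3) by the quasi-likelihood test with robust fitting, after filterByExpr and TMM scaling, and names with a Benjamini-Hochberg adjusted p under 0.05 were called. Standard errors were derived from the F statistic, and intervals from these and the moderated degrees of freedom. The procedure was tested on simulated data. It called 28% of the names given a log2 change of 1 in either direction, 91% of those given 2 and 0.279% of unchanged names. DESeq2 1.42.0 was an alternative, beside other scalings, filters, treatments of rows, a replicate block and leaving out each library. Ratios, shares and distances were computed in Python 3.11.15 with scipy 1.17.1.

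Members, lists and tests were chosen with earlier results of these data known. By rule the text names all members, the 2 names nearest to each of 5 3p names, cluster neighbours and names that share a seed. The sequence of miR-1 is listed as miR-1b, which joined the muscle lists once the names were seen. Of the marker lists, muscle fibre had 2 of 14 tested names called. edgeR called 0 in the others: endothelium (4 tested, 0 with unadjusted p under 0.05), smooth muscle (4 and 0), red blood cell (4 and 1), leukocyte (6 and 2), fibroblast (3 and 0) and epithelium (1 and 0). Over all 1274 names, edgeR called 2.2%, and 13.7% had an unadjusted p under 0.05, so that such small counts show nothing by themselves. DESeq2, which called 49 of 1274 names, called 3 in muscle fibre, 1 in red blood cell, 1 in leukocyte and 0 in the rest. Summed levels of smooth muscle (miR-143, miR-145) were 32472 to 44576 CPM in QHMM and 40234 to 53021 CPM in STH. Those of fibroblast (miR-199, miR-214) were 2027.5 to 2843 CPM in QHMM and 1948 to 3744 CPM in STH, and those of epithelium (miR-200, miR-141, miR-429, miR-205) were 4.49 to 32.1 CPM in QHMM and 3.89 to 21.0 CPM in STH.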

Additional observations from a re-analysis of the deposited data

How the results depend on the processing

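Of the members, 0 passed the threshold under each of the 17 alternatives, and their lowest adjusted p was 0.330 in edgeR, with the replicate block. Few of all names passed there either, with 49 of 1274 in DESeq2, 64 of 9972 when unfiltered and 8 of 930 with at least 10 counts in every library. A count of 0 is thus near the background and no result about the members. Of 182 member fold changes under alternatives, 172 kept their sign. The others were close to 0 on the log2 scale. All these fits reuse the same libraries, so that the count is no separate support. In it, the merged miR-23 and miR-27 rows stand for miR-23a and miR-27a. miR-23a was at 0.064 without a filter, where the median of all names was -0.34, and at 0.11 with the miR-23 rows merged. With each library left out, miR-23a ran from -0.12 to 0.051 (positive without QHMM replicate 3, STH replicate 1 or STH replicate 3), miR-27a from -0.21 to 0.022 and miR-24-3p from -0.25 to 0.0031 (both positive without STH replicate 1), miR-27b-3p from -0.040 to 0.19 (negative without QHMM replicate 1 or STH replicate 3) and miR-23b-3p from -0.018 to 0.38 (negative without QHMM replicate 2). The difference in log2 ratio ran from -0.16 to 0.085 for miR-27b over miR-23b (positive without replicate 2 of either breed) and from -0.26 to 0.065 for miR-27a over miR-23a (positive without STH replicate 2).

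Over all names, 28 of 1274 differed between the breeds. The count was 49 of 1274 in DESeq2, 64 of 9972 when unfiltered and 8 of 930 among names of at least 10 counts in every library. It was 6 of 487 among known names, 26 of 1274 under the replicate block and 16 to 35 with each library left out. It was 16 without QHMM replicate 3 and without STH replicate 3, and 18 without STH replicate 2. Stricter filters test fewer names, and for the rest the cause was not tested. The summed level of the members was 27739 CPM, and 19983 CPM over the larger total of all rows. Deviations from the mean of the breed correlated at 0.061, 0.24 and 0.12 for same-numbered libraries, with every library closest to its own number. The deviations within a breed are tied to each other, so that these matches are not separate. They are at most a hint in the data alone, since the labels give no pairing. Blocked by number, the exact tests of the 5 ratios gave p = 0.25 to 0.75, and 3 pairs allow none below 0.25. Depth limits miR-23b-5p, miR-27a-3p and miR-23a-5p.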
